A study of Mus musculus with 6 samples.

Results

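The kynurenine and NAD genes described here are 10 of the 41549 rows of 1 mRNA count table, namely Ido1, Ido2, Afmid, Kmo, Kynu, Haao, Qprt, Naprt, Nampt and Cd38, and they were found by gene symbol. The group was chosen by its αGlu against Ctr fold changes in these same libraries, which were known when it was proposed, so its differences are a description, and the calls of the fits are not independent evidence about it. The libraries came from mouse bone marrow-derived macrophages (BMDMs), which were grown with macrophage colony-stimulating factor from the marrow of wild-type adult C57Bl/6 N mice. Unpolarized M0 cells of both groups received a locked nucleic acid antisense by lipofection and were then polarized to M2, an anti-inflammatory state, by IL-4 plus IL-13. In the 3 libraries named αGlu the antisense was directed against 5′tRF-Glu(CTC), the 5′ fragment of a glutamate tRNA, and in the 3 libraries named Ctr it was a control. The transfection was transient, and the fragment itself was not measured in these mRNA libraries, so its loss could not be checked here. Fold changes are αGlu over Ctr throughout.

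The antisense and its target define the contrast, and both are shown 5′ to 3′ as DNA letters. The antisense has 20 bases and its target 21. Capitals mark the 20 bases of each that pair with the other.
antisense: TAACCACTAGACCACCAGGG
target: tCCCTGGTGGTCTAGTGGTTA

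Tryptophan is broken down mainly along the kynurenine pathway. IDO enzymes and TDO open its ring, arylformamidase releases kynurenine, and kynurenine 3-monooxygenase, kynureninase and 3-hydroxyanthranilate dioxygenase lead on to quinolinate, from which NAD can be built. Most cells, however, keep their NAD by salvage of nicotinamide through NAMPT, and spend it through CD38, PARP enzymes and sirtuins. In macrophages IDO1 is known as an interferon-induced enzyme, CD38 as a marker of inflammatory activation, and kynurenine as a ligand of the aryl hydrocarbon receptor (AhR).

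The libraries held between 17912831 and 30386653 counts. A gene with no read was below 0.0944 to 0.172 CPM, which are counts scaled to a common library size, the level of 3 counts in a library, and intervals and floors cover counting error only. Macrophage markers were high in both groups, with the 8 genes of the list summing to 12590 to 14330 CPM in Ctr and 13422 to 20923 CPM in αGlu. The genes differed in direction. In αGlu 2 and 3, Cd68 and Mertk lay below every Ctr library and the other genes of the list above. None of the 8 dendritic cell markers averaged above 1 CPM over the 6 libraries, although Clec9a averaged 1.06 CPM in Ctr and 0.606 CPM in αGlu. The sum of the 8 was 2.00 to 2.42 CPM in Ctr and 1.28 to 1.72 CPM in αGlu. Of the 7 neutrophil markers 2 averaged above 1 CPM. The 7 summed to 1.39 to 4.72 CPM in Ctr and 1.47 to 2.64 CPM in αGlu. Of the 5 mast cell and basophil markers only Kit did, at 1.62 to 3.09 CPM in Ctr and 0.403 to 1.15 CPM in αGlu. The 5 fibroblast markers summed to 1.39 to 6.63 CPM in Ctr and 0.976 to 2.58 CPM in αGlu. The 6 lymphocyte markers summed to at most 0.346 CPM. One library stood apart. Across all genes tested, log2 CPM of αGlu 1 correlated with αGlu 2 and αGlu 3 at a Pearson r of 0.928 and 0.929 and with the Ctr libraries at 0.967 to 0.983, whereas αGlu 2 and αGlu 3 correlated at 0.992. These correlations are across genes, which are not independent replicates. Whether this library differed in its transfection or its label cannot be told apart here, since the fragment was not measured, and the αGlu means and fold changes include it unless stated otherwise. Fold changes are also given without αGlu 1. That library was singled out by its expression in these same data. The p values and calls of the fit without it are therefore a description and not evidence of a difference.

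Levels of different genes were compared per length, in the TPM values of the deposited table, which are scaled by transcript length and depth. In Ctr, Nampt, the salvage enzyme, had by far the highest level, at 207 ± 31.5 TPM (SD, n = 3). Kynu followed at 10.5 ± 2.03 TPM, Naprt at 3.88 ± 0.309 TPM and Afmid at 3.05 ± 0.167 TPM, and the library values of these 4 genes did not overlap. Below them lay Cd38 at 1.31 ± 0.713 TPM and Ido2 at 0.583 ± 0.356 TPM, whose library values overlapped. Ido1 at 0.218 ± 0.123 TPM and Kmo at 0.146 ± 0.119 TPM overlapped as well, and Haao and Qprt were close to 0. The M2 Ctr cells thus held much salvage mRNA and little mRNA of most kynurenine enzymes. In αGlu, Nampt was again first at 279 ± 16.4 TPM, but Cd38 came second, at 52.0 ± 45.6 TPM. The SD of Cd38 was nearly as large as its mean, and αGlu 1 was the low library. In the αGlu order only Nampt over Cd38, Naprt over Afmid and Ido1 over Haao were neighbours without overlap. RPKM values gave the same number of neighbours without overlap, 8 over both groups.

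**Figure D1:**
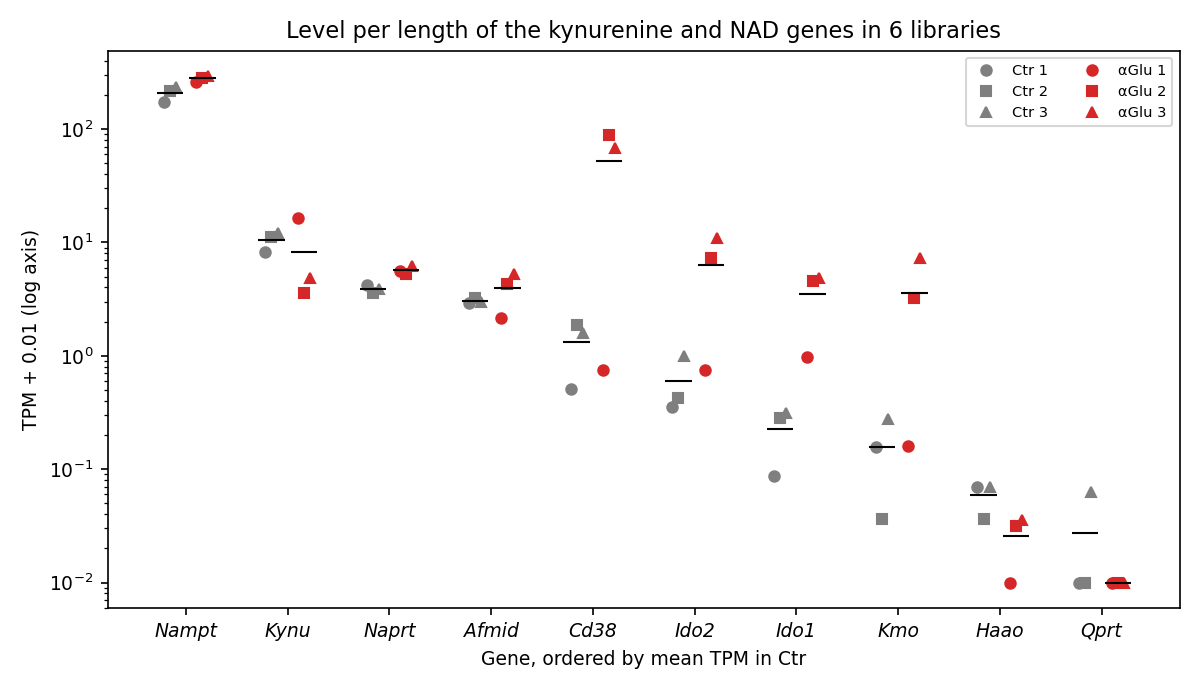
TPM of the 10 genes in each library, with 0.01 added and on a log axis, in grey for Ctr and red for αGlu, the marker shape giving the library number and the black line the group mean. Cd38, Ido1, Ido2 and Kmo in αGlu 2 and 3 lie above every Ctr library, and for Cd38 αGlu 1 (0.732 TPM) lies within the Ctr range of 0.503 to 1.86 TPM.

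Of the 10 genes, 7 had enough counts to be fitted with edgeR over the 6 libraries, and Kmo, Haao and Qprt did not pass the filter on low counts. A gene with few reads in Ctr, such as Ido1, passed only through its αGlu reads. A gene was called where edgeR's quasi-likelihood test gave a Benjamini-Hochberg adjusted p below 0.1 and the log2 fold change exceeded 1 in either direction, and 0 of the 7 were. The same holds for every gene, since 0% of the 11933 genes tested were called, although 2943 had an unadjusted p below 0.05. Limma-voom called 0 genes too, with 3101 below that p. DESeq2 called 4 of the 8 genes of this group to which it gave an adjusted p, Ido1, Ido2, Kmo and Cd38, all higher in αGlu, where it called 8.16% of all genes, 4.23% as higher and 3.93% as lower. Without αGlu 1 the quasi-likelihood test called 5 of 8, those 4 as higher and Kynu as lower, where it called 18.6% of all genes, 8.05% as higher and 10.5% as lower. Because the genes were chosen for this contrast, nothing is read from these shares. In Ido1, Naprt and Nampt, 3 of the 7, the αGlu and Ctr values did not overlap, each time higher in αGlu, against 30.2% of all genes without overlap in either direction and 14.2% as higher. Without αGlu 1 all 7 lacked overlap, and so did Kmo, as did 66.1% of the 12340 genes tested without that library.

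**Figure D2:**
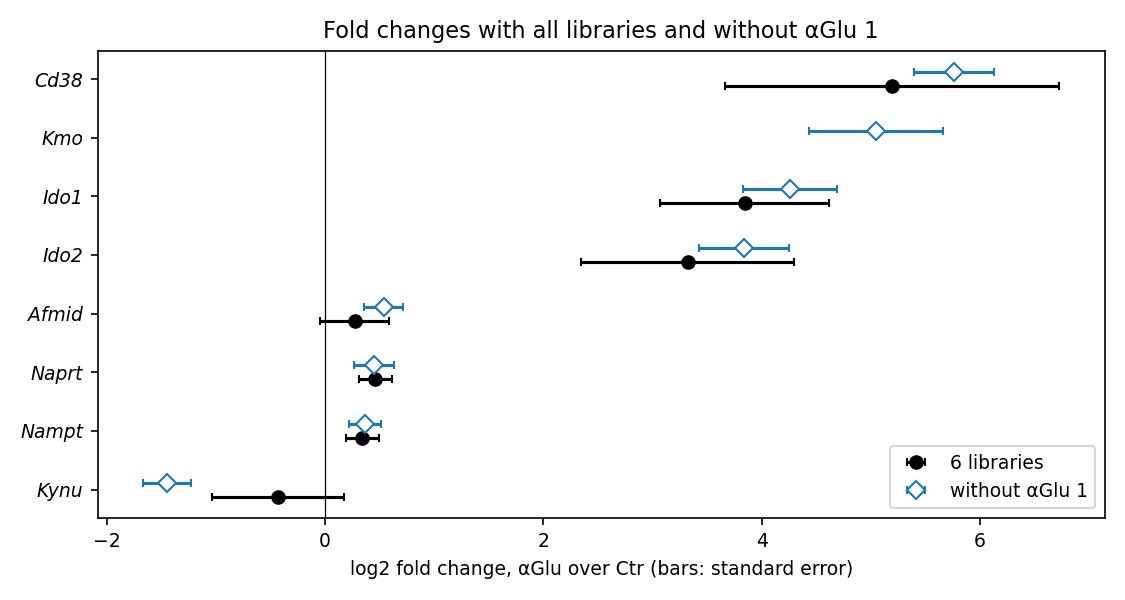
Log2 fold change of αGlu over Ctr with its standard error (bars), for the 7 genes fitted with all 6 libraries (filled circles) and the 8 fitted without αGlu 1 (open diamonds). Cd38, Kmo, Ido1 and Ido2 lie far above 0, the error bars of Cd38, Ido1 and Ido2 are shorter without αGlu 1, Kynu moves from -0.43 to -1.45, and Naprt and Nampt hardly move.

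The first step of the pathway is encoded by Ido1 and Ido2, paralogs that catalyse the opening of the tryptophan ring. They lie side by side on the minus strand of chromosome 8, Ido2 at chr8:24531892-24576333 and Ido1 at chr8:24584136-24597009 (GRCm38, GENCODE M21), with 7802 bases between them. Ido1 had 1, 4 and 4 reads in Ctr 1 to 3 and 10, 82 and 74 reads in αGlu 1 to 3. Scaled to library size this was 0.0454, 0.167 and 0.186 CPM against 0.574, 2.58 and 2.71 CPM. All αGlu libraries lay above all Ctr libraries, and αGlu 1 lay between the Ctr libraries and the other αGlu libraries. The log2 fold change was 3.85 ± 0.77 (SE), and 4.26 ± 0.43 without αGlu 1. Since Ctr 1 held 1 read, the ratio of the summed reads, corrected for library size, is also given, and it was 16.3 with an exact 95% interval of 8.37 to 36.2. That interval covers counting error only and leaves out the spread between libraries.

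Ido2 had 9, 12 and 26 reads in Ctr and 15, 261 and 327 reads in αGlu, or 0.409, 0.502 and 1.21 CPM against 0.860, 8.22 and 11.99 CPM. Here αGlu 1 fell within the range of Ctr, and αGlu 2 and 3 were at least 11.6-fold over the Ctr mean. The log2 fold change was 3.32 ± 0.98, and 3.84 ± 0.41 without αGlu 1. The likeness of 2 genes was measured as the root-mean-square (RMS) difference between their log2 CPM, each centred on its own mean of the 6 libraries. It was 0.588 for Ido1 and Ido2. The third enzyme of this step, Tdo2, which is known mainly from liver, had reads in Ctr 3 only, at the level of 0.0464 CPM.

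Afmid encodes arylformamidase, which turns formylkynurenine into kynurenine. Its levels were 3.36, 3.85 and 3.53 CPM in Ctr and 2.47, 4.75 and 5.69 CPM in αGlu. The lowest and the highest of the 6 libraries were both αGlu, so the groups overlapped, and the log2 fold change was 0.27 ± 0.32, or 0.54 ± 0.18 without αGlu 1. Afmid (chr11:117825924-117839908, plus strand) shares its first 169 bases with Tk1 on the other strand and 13981 bases with the span of a read-through gene model on its own strand, Gm20708. The libraries were stranded, but the sources used here do not say whether strand was used in counting, so the Afmid counts are uncertain. Tk1 itself, which encodes thymidine kinase, had 1.92 to 6.59 CPM in Ctr and 0.401 to 1.10 CPM in αGlu.

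Kmo and Kynu act next, and in αGlu 2 and 3 they differed from Ctr in opposite directions. Kmo (chr1:175620381-175662116) encodes the monooxygenase that makes 3-hydroxykynurenine, and Kynu (chr2:43555329-43682715) the kynureninase that cleaves it. Kmo had 5, 1 and 9 reads in Ctr and 4, 151 and 284 reads in αGlu, or 0.227, 0.0418 and 0.418 CPM against 0.229, 4.75 and 10.4 CPM. The value of αGlu 1 was close to that of Ctr 1, and αGlu 2 and 3 lay 20.8-fold and 45.5-fold over the Ctr mean. With the filter on low counts Kmo was fitted only without αGlu 1, with a log2 fold change of 5.05 ± 0.62. Over all 6 libraries it was 4.49 with DESeq2 and with edgeR without that filter. The ratio of the summed reads of all libraries was 25.8 (exact 95% interval 15.5 to 46.6). That interval covers counting error only and leaves out the wide spread between the αGlu libraries. Kmo shares 5255 bases of its span with Fh1, the fumarate hydratase gene on the other strand, which had 29.4 to 38.6 CPM in Ctr and 28.7 to 60.0 CPM in αGlu.

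Kynu had 362, 554 and 536 reads in Ctr and 565, 217 and 246 reads in αGlu. In CPM these were 16.4, 23.2 and 24.9 against 32.4, 6.83 and 9.02. The highest of the 6 libraries was αGlu 1, at 1.51-fold the Ctr mean, and the lowest were αGlu 2 and 3, at 0.318-fold and 0.420-fold. The log2 fold change was therefore -0.43 ± 0.60 with all libraries and -1.45 ± 0.22 without αGlu 1. It was the only gene of the group with a negative fold change among the 7 fitted. Of all pairs, Kynu and Cd38 had the most different profiles, with an RMS difference of 3.64 on the log2 scale.

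Haao and Qprt, which encode the enzymes that make quinolinate's precursor and use quinolinate for NAD, were barely read. Haao (chr17:83831156-83847963) had 2, 1 and 2 reads in Ctr and 0, 1 and 1 in αGlu. Qprt (chr7:127107114-127122226) had 1 read in all, in Ctr 3. Both stayed at or below 3 counts in every library, so a difference between the groups was not detectable at this depth, and no fold is given. Of the steps that link kynurenine to NAD, these 2 were thus at the floor in both groups.

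Naprt and Nampt start the other routes to NAD, from nicotinic acid and from nicotinamide. Naprt had 3.18, 2.80 and 3.06 CPM in Ctr and 4.19, 3.87 and 4.40 CPM in αGlu. All αGlu libraries were higher than all Ctr libraries, αGlu 1 included, by 1.28-fold to 1.46-fold over the Ctr mean, and the log2 fold change was 0.46 ± 0.15, or 0.45 ± 0.18 without αGlu 1. Naprt (chr15:75890956-75894481, minus strand) overlaps Eef1d of the same strand by 277 bases, so some of its counts may be uncertain. Eef1d, a translation elongation factor gene, had 67.3 to 73.8 CPM in Ctr and 65.3 to 67.1 CPM in αGlu.

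Nampt (chr12:32819545-32853349, plus strand) had 283, 366 and 395 CPM in Ctr and 425, 448 and 450.5 CPM in αGlu. The groups did not overlap, and the log2 fold change was 0.34 ± 0.15, or 0.36 ± 0.15 without αGlu 1. Its span shares 5033 bases with Gdap10, a long non-coding RNA gene of the same strand, so some of its counts may be uncertain too. Ctr 1 was the lowest of the 6 libraries by a wide margin. In the same library 9 genes induced by type I interferon summed to 367 CPM, against 2597 to 4194 CPM in the other 5 libraries, and whether this had a part in the Nampt values was not tested. Without Ctr 1 the log2 fold change of Nampt was 0.22, the lowest value when 1 library was left out. Naprt and Nampt had the most similar profiles of all pairs, with an RMS difference of 0.197, and both were narrow, spanning 0.63 and 0.67 log2 units over the 6 libraries.

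Since kynurenine is an AhR ligand, the promoters of the group were searched for the AhR core GCGTG on both strands, and that of Nampt is shown because it held the most matches. Its RefSeq start is that of the protein-coding transcript, which lies 790 bases inside the gene span given above, as another transcript of Nampt starts earlier. The 250 bases before this start, chr12:32820085-32820334 on the plus strand (RefSeq, GRCm38.p6), are shown 5′ to 3′ with each core, or its reverse CACGC, in capitals.
Nampt upstream: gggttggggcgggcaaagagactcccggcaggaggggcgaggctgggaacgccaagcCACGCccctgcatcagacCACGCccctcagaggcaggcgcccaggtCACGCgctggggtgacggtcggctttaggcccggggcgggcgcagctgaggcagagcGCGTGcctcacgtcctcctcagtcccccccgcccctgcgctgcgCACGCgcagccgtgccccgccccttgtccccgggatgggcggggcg

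It held 5 cores. Windows of 250 bases before to 50 bases after the start were listed for 6 of the 10 genes, Afmid, Kmo, Haao, Qprt, Nampt and Cd38, and for 32851 promoters in all. At least 1 core was present in 32.4% of all windows and 5 or more in 0.463%. These shares were not matched for base composition, so no enrichment is read from them. Haao held 1 core, and Afmid, Kmo, Qprt and Cd38 held none. Other motifs were searched on both strands as well. The interferon-stimulated response element (3.44% of all windows), the STAT6 site (6.95%), the NF-κB site (0.411%) and the E-box CACGTG (7.15%) were found in none of the 6. A match is a match of letters only.

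Cd38 encodes the main NAD glycohydrolase of the cell surface, and its values differed most of the 10. It had 14, 58 and 44 reads in Ctr and 16, 3395 and 2172 reads in αGlu. In CPM this was 0.636, 2.42 and 2.04 against 0.918, 107 and 79.7. The library αGlu 1 lay within the range of Ctr, at 0.540-fold of its mean, and αGlu 2 and 3 at 62.8-fold and 46.8-fold. The log2 fold change was 5.19 ± 1.53, and 5.76 ± 0.37 without αGlu 1. The span of Cd38 holds 2 gene models, Gm16014 in an intron and Gm16015 on the other strand, both with 0 reads in every library. In these bulk samples a smaller or larger number of cells that express a gene cannot be told apart from less or more of its mRNA per cell.

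Cd38 (chr5:43868553-43912375) has its paralog Bst1 (chr5:43818885-43843986), which encodes a related ADP-ribosyl cyclase, 24566 bases upstream on the same strand. The span of Bst1 shares 2754 bases with Fbxl5, a protein-coding gene on the other strand, so some of its counts may be uncertain. Bst1 followed the same pattern at a smaller size. It had 2.95, 3.05 and 2.55 CPM in Ctr and 1.95, 17.1 and 9.43 CPM in αGlu, so αGlu 1 was the lowest of the 6 libraries. Its log2 fold change was 1.74 ± 0.71 (adjusted p = 0.2 with edgeR's quasi-likelihood test over all genes) and 2.21 ± 0.27 without αGlu 1 (adjusted p = 0.00137).

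Cd38 and Ido2 spanned the widest ranges of the 7 genes fitted, 7.20 and 4.59 log2 units, and the genes with the most similar centred profiles over the 6 libraries were sought for both. For Cd38 these were Arg1, Arg2 and Acod1, at RMS differences of 0.313, 0.443 and 0.606 log2 units. Arg1 encodes the arginase typical of M2 Mφs, Arg2 the mitochondrial arginase, and Acod1 the enzyme that makes itaconate. Arg1 had 23.5 to 45.2 CPM in the Ctr libraries and αGlu 1, and 1886 and 1792 CPM in αGlu 2 and 3. For Ido2 they were Orai2, Cd55 and Tagap, at 0.273, 0.380 and 0.380 log2 units. Thus the profile was that of 2 libraries against 4.

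The sum of a list of 11 response genes of interferon-γ and lipopolysaccharide was also higher in αGlu. It was 648 to 1263 CPM in Ctr, 1511 CPM in αGlu 1 and 1986 to 2464 CPM in αGlu 2 and 3. Of the 11, 10 averaged above 1 CPM over the 6 libraries, and not all were higher. Ciita was the only tested gene of the list with a negative fold change, at 116 to 150 CPM in Ctr and 73.8 to 102 CPM in αGlu. Irf1 hardly differed, with a log2 fold change of 0.06 ± 0.26. The position of αGlu 1 differed between genes of the list. Il1b, the cytokine gene, had 0.278 to 0.454 CPM in Ctr and 0.0574 CPM in αGlu 1, but 322 and 345 CPM in αGlu 2 and 3. By contrast Cxcl9 had at most 0.0909 CPM in Ctr and 5.85, 6.42 and 3.34 CPM in αGlu 1 to 3. Gbp5 had 5.54 to 22.5 CPM in Ctr and 44.6, 80.2 and 62.1 CPM in αGlu 1 to 3. Whether these levels had a part in the Cd38, Ido1, Ido2, Kmo and Kynu values was not tested.

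The other genes of the pathway were taken from 5 lists with 62 genes in the table, of which 49 passed the filter on low counts. With all 6 libraries 0 of the 49 were called by edgeR's quasi-likelihood test. An unadjusted p under 0.05 was found for 18 of the 49, against 2943 of the 11933 genes tested. The median log2 fold change of the 49 was 0.09, against 0.02 over all genes tested. The groups did not overlap in 18 of the 49, of which 13 were higher and 5 lower in αGlu. Of all genes 30.2% lacked overlap, 14.2% as higher and 15.9% as lower. Without αGlu 1 the test called 8 of the 49, 7 higher and 1 lower, against 18.6% of all genes, 8.05% as higher and 10.5% as lower. DESeq2 with all libraries called 7 of 51, the same genes other than Slc7a8, against 8.16%.

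**Figure D3:**
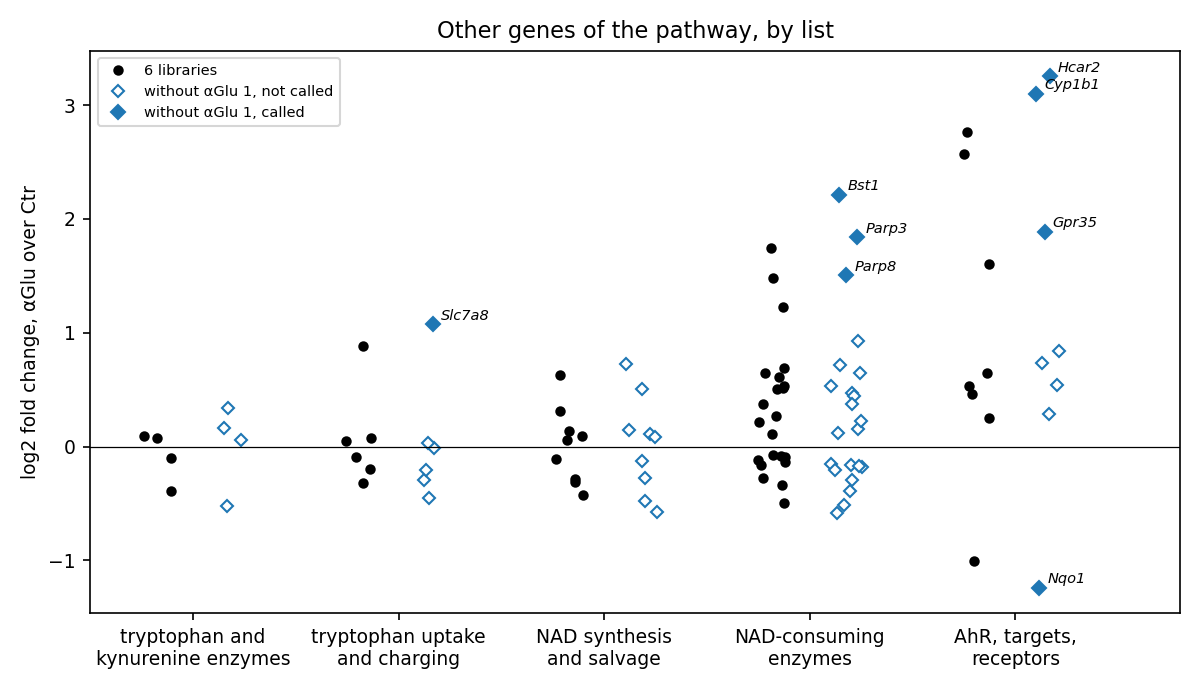
Log2 fold change of αGlu over Ctr for the 49 fitted genes of the 5 lists, with all 6 libraries (black circles) and without αGlu 1 (diamonds, filled and named where called). The 8 called genes lie in 3 lists, and no gene of the other 2 lists lies beyond 1 in either direction.

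Among the other tryptophan and kynurenine enzymes, 4 of 10 were tested and none was called with or without αGlu 1. The 2 with the smallest p were Kyat3, a kynurenine aminotransferase gene (log2 fold change -0.39 ± 0.29, and -0.52 ± 0.31 without αGlu 1), and Got2, the mitochondrial aspartate aminotransferase gene (0.08 ± 0.11, and 0.17 ± 0.08). Aadat, Aldh8a1, Tph1 and Ddc had no read in any library. Of the genes for tryptophan uptake and charging all 6 were tested, and without αGlu 1 only Slc7a8, a neutral amino acid transporter gene, was called. The fit without αGlu 1 called 18.6% of all genes. Slc7a8 had 77.1, 109 and 143 CPM in Ctr and 142, 223 and 241 CPM in αGlu, with a log2 fold change of 0.88 ± 0.29 (edgeR adjusted p = 0.168) and 1.07 ± 0.24 without αGlu 1 (adjusted p = 0.0138).

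In NAD synthesis and salvage 9 of 13 genes were tested and 0 were called in either fit, while Nnt was not analysed here. The smallest p values belonged to Nadsyn1, the gene of NAD synthetase, and Nmnat3, that of a mitochondrial adenylyltransferase. Their log2 fold changes were -0.43 ± 0.11 and -0.31 ± 0.11, with edgeR adjusted p values of 0.156 and 0.174, and without αGlu 1 they were -0.48 ± 0.12 and -0.27 ± 0.11. For both, all αGlu values lay below all Ctr values. Nadsyn1 had 11.6 to 13.5 CPM in Ctr and 8.47 to 9.81 CPM in αGlu. Thus Nadsyn1, which acts after Naprt, had the opposite sign to Naprt.

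Of the 23 genes of other NAD-consuming enzymes 22 were tested. Without αGlu 1 the test called 3, all higher, namely Bst1, Parp3 and Parp8, where it called 18.6% of all genes, 8.05% as higher. Parp3, an ADP-ribosyltransferase gene linked to DNA repair, had 14.9 to 19.8 CPM in Ctr and 21.2, 60.2 and 67.4 CPM in αGlu. Its log2 fold change was 1.48 ± 0.43 (edgeR adjusted p = 0.159) and 1.84 ± 0.13 without αGlu 1 (adjusted p = 0.00017). Parp8 was close to it, with 1.23 ± 0.32 (adjusted p = 0.156) and 1.51 ± 0.12 (adjusted p = 0.000257). In both genes αGlu 1 lay just above the Ctr libraries and far below αGlu 2 and 3. The interferon-linked members of the list, Parp9, Parp10, Parp11, Parp12 and Parp14, were chosen after their values were seen, and each had its lowest value in Ctr 1. Parp14 had 262 CPM there, 572 and 602 CPM in the other Ctr libraries and 666 to 806 CPM in αGlu.

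**Figure D4:**
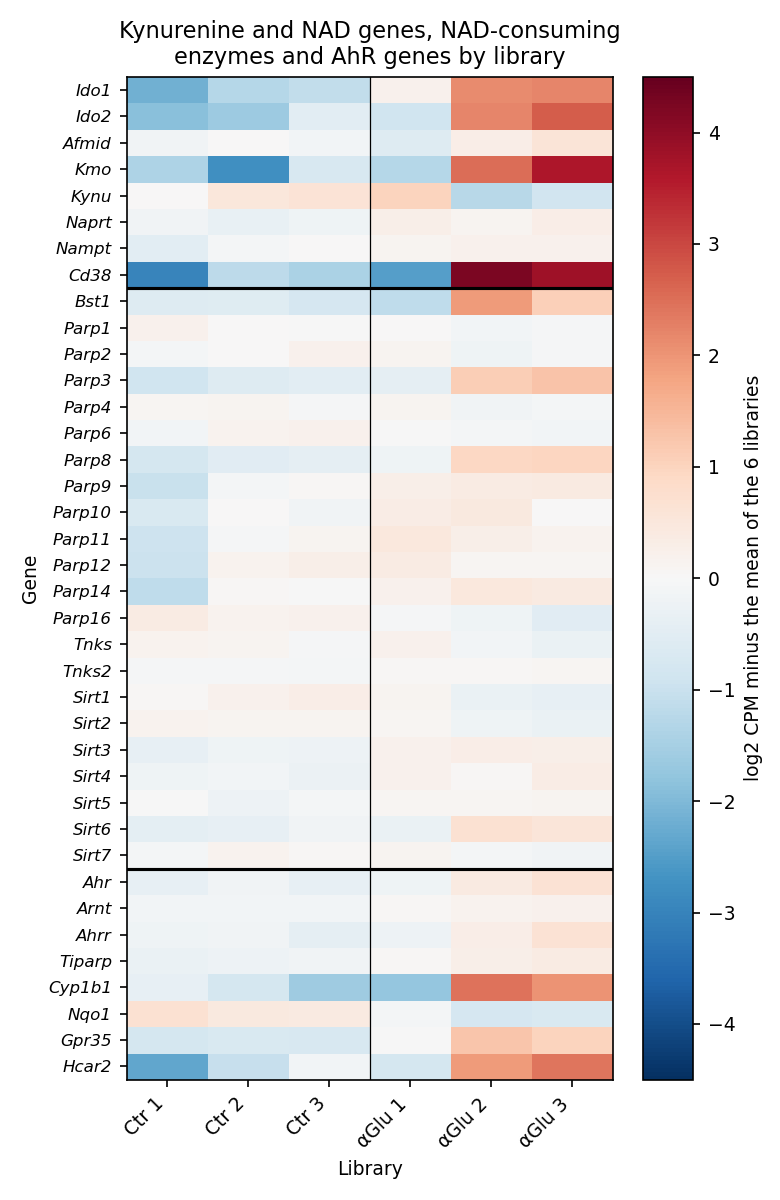
Log2 CPM of 8 of the 10 genes (top block), the 22 tested NAD-consuming enzymes (middle) and the 8 tested AhR genes and metabolite receptors (bottom) in the 6 libraries, each gene centred on its mean, red above and blue below it. Cd38, Kmo, Ido1 and Ido2 with Bst1, Cyp1b1 and Hcar2 are red in αGlu 2 and 3, and αGlu 1 has the colours of the Ctr libraries for Cd38, Kmo and Bst1.

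The last list held AhR, its partners and targets, and receptors of metabolites, of which 8 of 10 were tested. Of the 8, 7 were higher and 1 was lower in αGlu, where of all 11933 genes tested 6200 were higher and 5733 lower. With all libraries 0 of the 8 were called. Without αGlu 1 the test called Cyp1b1, Gpr35 and Hcar2 as higher and Nqo1 as lower. Over all genes that fit called 8.05% as higher and 10.5% as lower. Gpr35, a receptor for which kynurenic acid has been proposed as ligand, had 3.82 to 4.05 CPM in Ctr and 6.48, 15.8 and 13.4 CPM in αGlu, with no overlap. Its log2 fold change was 1.60 ± 0.33 (edgeR adjusted p = 0.149) and 1.89 ± 0.13 without αGlu 1 (adjusted p = 0.000151). Hcar2, the nicotinic acid receptor gene, had a log2 fold change of 2.76 ± 0.96 (adjusted p = 0.174) and 3.25 ± 0.54 without αGlu 1 (adjusted p = 0.00452).

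The 2 AhR targets that were called without αGlu 1 went in opposite directions. Cyp1b1, a cytochrome P450 gene, had 12.5, 9.24 and 5.24 CPM in Ctr and 4.76, 88.5 and 66.4 CPM in αGlu, so that αGlu 1 was the lowest library. Its log2 fold change was 2.57 ± 0.97 (edgeR adjusted p = 0.187) and 3.10 ± 0.31 without αGlu 1 (adjusted p = 0.000679). Nqo1, a quinone reductase gene also known as a target of the oxidative stress response, had 13.2, 11.3 and 10.95 CPM in Ctr and 7.74, 4.88 and 5.17 CPM in αGlu, without overlap. Its log2 fold change was -1.003 ± 0.21 (adjusted p = 0.149) and -1.24 ± 0.14 without αGlu 1 (adjusted p = 0.000895). Cyp1a1 and Cyp1a2, the best known targets, had at most 0.115 CPM in any library.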

How the data were processed

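Messenger RNA of 6 BMDM-M2 libraries, 3 Ctr and 3 αGlu, was analysed. The authors prepared stranded mRNA libraries, sequenced them on an Illumina NovaSeq instrument and used the QIAGEN RNA-seq Analysis Portal for the reads. The submitters' processing notes name GRCm38, whereas the aligner, the annotation, the use of strand in counting and the treatment of multi-mapped reads are not given in the sources used here. The deposited counts are whole reads per gene without normalization. The deposited RPKM and TPM values are the authors' counts per exon length and depth, and were used for levels between genes only. A deposited signal, counts divided by an effective library size, was not used.

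Counts were filtered with filterByExpr (minimum count 10, minimum total count 15) in edgeR 4.0.16 under R 4.3.3, scaled by TMM factors and fitted with a two-sided quasi-likelihood negative binomial model with group as the only term, and p values were adjusted by Benjamini-Hochberg over 11933 genes. Calls required an adjusted p below 0.1 and a log2 fold change beyond 1 in either direction. Each standard error is the fold change divided by the root of its F statistic. CPM are counts over the TMM-scaled library size, and log2 CPM have a prior count of 2. Alternatives used DESeq2 1.42.0, limma 3.58.1 (voom), other scaling and filters, the replicate number as a block, and each library left out. The models were tested on simulated data.

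The study describes the 3 libraries of a group as independent experiments. No library pair agreed within sampling noise. Genes, lists and rules were chosen with earlier results of these data known. Named are the 10 genes, each list gene called with all libraries or without αGlu 1, otherwise the 2 smallest p of a list, the 3 most similar profiles for the 2 widest ranges, and Bst1. Tdo2, genes that overlap one of the 10, and others said to be so were named after their values were seen. Gene positions are from GENCODE M21, promoters from RefSeq. The result for 1 further motif is not reported here.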

Additional observations from a re-analysis of the deposited data

How the results depend on the processing

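Among the 10 genes the number called was 0 with all 6 libraries, with limma-voom, with other scaling factors and filters and without a limit on the fold change, but 4 with DESeq2, and between 0 and 5 when 1 library was left out, with 5 only without αGlu 1. For the pathway genes DESeq2 gave 7 and leaving out 1 library 0 to 8, and for all genes DESeq2 gave 1119 and leaving out 1 library 0 to 2290. Of the 7 genes fitted, 3 to 7 lacked overlap when 1 library was left out, with 7 without αGlu 1. Of all genes tested, 66.1% lacked overlap without αGlu 1, against 30.2% with all libraries. No fold change of the 7 genes fitted turned its sign under these alternatives. Kynu ranged from -1.45 to -0.06 and Afmid from 0.03 to 0.54 on the log2 scale when 1 library was left out.

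With the replicate number as a block 17 of all genes were called, and 0 of the 10 genes and 0 pathway genes. Deviations of same-numbered libraries correlated at 0.0803, 0.0644 and 0.158, so the numbers were not taken to pair the libraries, although each library correlated best with its own number. Depth limits Haao, Qprt and the Ctr values of Ido1 and Kmo, which rest on at most 9 reads each per library.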

Other observations

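Further pathway genes, chosen after their values were seen, differed less than Cd38 but without overlap between the groups or with αGlu 1 apart. Among the sirtuins, which are NAD-dependent deacylases, Sirt3 had 6.68 to 7.48 CPM in Ctr and 9.86 to 10.7 CPM in αGlu, and αGlu 1 was not apart (log2 fold change 0.51 ± 0.10, and 0.53 ± 0.11 without it, adjusted p = 0.149 with edgeR's quasi-likelihood test on all libraries). Sirt6 had 8.63 to 10.4 CPM in Ctr and 9.52, 18.8 and 17.1 CPM in αGlu (log2 fold change 0.69 ± 0.26, and 0.93 ± 0.11 without αGlu 1). Il4i1, an amino acid oxidase gene that also acts on tryptophan, had 15.7 to 16.6 CPM in Ctr and 4.07, 16.2 and 24.5 CPM in αGlu, so αGlu 1 was the lowest library (log2 fold change -0.10 ± 0.57, and 0.34 ± 0.17 without it). Ahr had 12.3 to 14.2 CPM in Ctr and 13.99, 21.4 and 25.4 CPM in αGlu (log2 fold change 0.64 ± 0.22, and 0.84 ± 0.11 without αGlu 1).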
